A study of Arabidopsis thaliana with 6 samples.

Results

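The plastid SUF genes encode the machinery that builds iron-sulfur clusters in plastids, and 10 loci of this pathway were followed in anthers of wild-type Arabidopsis thaliana (ecotype Col-0). They were chosen by locus, as NFS2, SUFE1, SUFE2, SUFE3, SUFB, SUFC, SUFD, SUFA, NFU2 and HCF101, and all 10 are among the 33027 loci of the files and passed the filter on low counts. For the last 18 days plants stood in hydroponic solution without added NaFe-EDTA (Fe-deficient, 3 libraries) or with it (control, 3 libraries), after 10 days on plates and 18 days in hydroponics with iron. RNA came from whole anthers, at a stage that the labels give only as PMC-TC. All plants were wild type, and no label states that replicate libraries are of different plants, so a p-value here reflects the spread among the libraries alone, and that spread may be technical. Levels are given as CPM, a gene's count scaled to a common library size, and as TPM, which is also scaled to transcript length, where genes are compared with each other. Values per library are in the order of libraries 1, 2 and 3 of each group.

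Iron-sulfur clusters are cofactors of ferredoxin, of photosystem I, of the cytochrome complex between the photosystems and of enzymes that reduce nitrite and sulfite. In the SUF pathway the cysteine desulfurase NFS2 takes sulfur from cysteine and is activated by SUFE proteins, and SUFB, SUFC and SUFD form the scaffold complex on which the cluster is put together. Carrier proteins such as SUFA, NFU2 and HCF101 then hand clusters to the proteins that use them.

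SUFB, the scaffold subunit, was 13.3-fold below the control mean in 1 Fe-deficient library, while its partner subunits SUFC and SUFD were near their control levels there. No SUF gene passed the test between the groups, which called 0 of all 21267 tested loci in either direction. HCF101, NFS2 and SUFD were below every control in Fe-deficient 1 and 2 and within or above the control range in Fe-deficient 3. Of all tested loci, 37.7% were below every control in Fe-deficient 1 and 36.3% in Fe-deficient 2. The share in both was not counted, so this pattern cannot be called particular to the SUF genes. SUFE1 was the single SUF gene whose 3 Fe-deficient libraries all lay below the 3 controls, as did those of 10.3% of all tested loci.

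Fe-deficient 3 stands apart from the other libraries in its iron-response genes. BTS, an E3 ligase that is raised when iron is short, had 101, 79.6 and 860 CPM in the Fe-deficient libraries, and 74.0, 72.0 and 80.3 CPM in the control libraries. OPT3, a phloem iron transporter, had 67.6, 19.5 and 572 CPM in the Fe-deficient libraries, and 24.1, 17.1 and 38.3 CPM in the control libraries. Of 10 tested iron-response genes, 6 were at least 1 log2 unit (2-fold) above the control mean and above all controls in Fe-deficient 3, where 7.06% of all tested loci were, and 3 were as far below, where 4.63% were. In Fe-deficient 1 these counts were 2 above (11.2% of all) and 2 below (7.43%), and in Fe-deficient 2 they were 0 above (9.09%) and 1 below (6.87%). The files do not settle whether anthers of Fe-deficient 1 and 2 were short of iron, so each value for the Fe-deficient group covers libraries that differ in this response. Library totals were between 16818176 and 22710901 estimated counts. The labelled tissue was checked with marker genes: the floral identity genes AP3 and PI together had between 610 and 798 CPM in the Fe-deficient libraries and between 563 and 728 CPM in the controls. The summed CPM of 11 tapetum genes (the tapetum is the nurse layer of the anther) was 1392, 1078 and 2272 in the Fe-deficient libraries, and 5615, 3050 and 3332 in the control libraries. That of 8 late pollen genes was 8391, 9936 and 3222 CPM in the Fe-deficient libraries, and 782, 3545 and 3357 CPM in the control libraries. That of 8 green tissue genes was 3546, 3601 and 4900 CPM in the Fe-deficient libraries, and 4416, 4594 and 5749 CPM in the control libraries. The tapetum regulator DYT1 had 1, 0 and 7 counts in the Fe-deficient libraries and 33, 2 and 3 counts in the control libraries, and was not tested. The pollen receptor kinase ANX2 was at 0 counts in control 1. In such whole-organ samples fewer cells of a type and less RNA per cell cannot be told apart, and the part of cell makeup in the results below was not tested.

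The 250 bases before the annotated starts of the 3 scaffold genes are shown because SUFB departed from its partners. The sequences are from RefSeq's TAIR10.1 assembly, on the gene's strand, with each CACGAG or its reverse complement CTCGTG in capitals.
SUFB chr4:2429900-2430149 (minus strand): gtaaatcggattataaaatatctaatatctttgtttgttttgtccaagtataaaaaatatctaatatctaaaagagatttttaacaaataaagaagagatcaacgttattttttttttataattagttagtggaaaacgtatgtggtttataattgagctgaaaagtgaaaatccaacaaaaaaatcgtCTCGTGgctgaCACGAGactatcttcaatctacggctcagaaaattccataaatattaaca
SUFC chr3:3337447-3337696 (minus strand): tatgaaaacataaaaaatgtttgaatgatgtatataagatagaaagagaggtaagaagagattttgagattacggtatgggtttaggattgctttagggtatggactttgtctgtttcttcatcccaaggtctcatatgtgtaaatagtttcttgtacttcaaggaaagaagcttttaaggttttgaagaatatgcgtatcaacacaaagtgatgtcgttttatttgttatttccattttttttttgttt
SUFD chr1:11752191-11752440 (minus strand): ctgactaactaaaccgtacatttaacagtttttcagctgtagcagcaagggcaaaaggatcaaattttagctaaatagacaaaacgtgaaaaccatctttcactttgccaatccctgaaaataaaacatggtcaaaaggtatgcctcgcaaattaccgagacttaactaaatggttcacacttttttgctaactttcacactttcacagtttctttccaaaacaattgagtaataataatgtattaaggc
In the SUFB sequence CTCGTG begins 61 bases and CACGAG 50 bases before the start, so that each is the reverse complement of the other. This motif was picked after the SUFB sequence had been read. Searched on both strands in windows of 300 bases, from 250 before to 50 after the start, it was present in 5.18% of 27443 protein-coding genes and present 2 or more times in 0.2%. Of the 10 SUF genes, SUFB was the only one with a match. Of genes that were also low in Fe-deficient 3, FER1, FER4, FSD1 and NEET had 0 matches in their windows. Sequence outside these windows was not searched. The G-box CACGTG, which basic helix-loop-helix factors are known to bind, was in 0 of the 10 SUF windows and in 7.68% of all, and of the iron genes searched BTS held 3, FER4 held 1 and PYE, FER1, FSD1 and NEET held 0. The looser form CANNTG, which allows any bases in its middle and includes the G-box, was in 9 of the 10 SUF windows. The window without it was that of SUFB, and 61.7% of all windows had it. These are matches of letters only.

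SUFB (AT4G04770, called ABCI8 in the reference, TAIR10.1 chromosome 4, 2427686 to 2429899, minus strand, 2 exons) binds the growing cluster. It had 64.2, 68.7 and 4.59 CPM in the Fe-deficient libraries, and 57.6, 57.7 and 70.0 CPM in the control libraries. The 5 libraries other than Fe-deficient 3 lay within 1.22-fold of each other, and Fe-deficient 3 was 12.5-fold below the lowest of them. Its 105 counts there give an exact Poisson 95% interval of 3.76 to 5.56 CPM, which covers counting error only. Set against the mean of the 3 controls on the log2 scale, the difference in that library was -3.74, which is 13.3-fold lower. Differences as far below the controls were found for 31 of 21267 tested loci in Fe-deficient 3 (0.146%). In that library the late pollen and green tissue sums were within the control range, and the tapetum sum was below it. Of the 8 late pollen genes, however, 4 were above all controls there (30.5% of all tested loci were). Of these, 3 were at least 1 log2 unit above the control mean (7.06% of all), and the median difference of the 8 was 1.21. The edgeR log2 fold change of SUFB was -0.43 (SE 0.83, adjusted p = 0.816), and it was 0.11 without Fe-deficient 3, -0.75 without Fe-deficient 1 and -0.85 without Fe-deficient 2. Limma-voom, which averages log values, gave -1.30 (adjusted p = 0.561).

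SUFC (AT3G10670, chromosome 3, 3335004 to 3337446, 6 exons), the ATPase of the scaffold, was the steadiest of the 3 subunits. It had 38.8, 37.1 and 39.0 CPM in the Fe-deficient libraries, and 39.9, 36.8 and 42.1 CPM in the control libraries. All 3 Fe-deficient values lay within the control range, and the edgeR log2 fold change was -0.05 (SE 0.11, adjusted p = 0.844), and -0.10 without control 2. SUFD (AT1G32500, chromosome 1, 11749798 to 11752190, 3 exons), a scaffold subunit related to SUFB, had 31.8, 28.3 and 35.7 CPM in the Fe-deficient libraries, and 45.9, 33.3 and 38.3 CPM in the control libraries. Fe-deficient 1 and 2 were below the lowest control and Fe-deficient 3 was within the control range, with an edgeR log2 fold change of -0.29 (SE 0.17, adjusted p = 0.438), which was -0.17 without control 1.

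**Figure D1:**
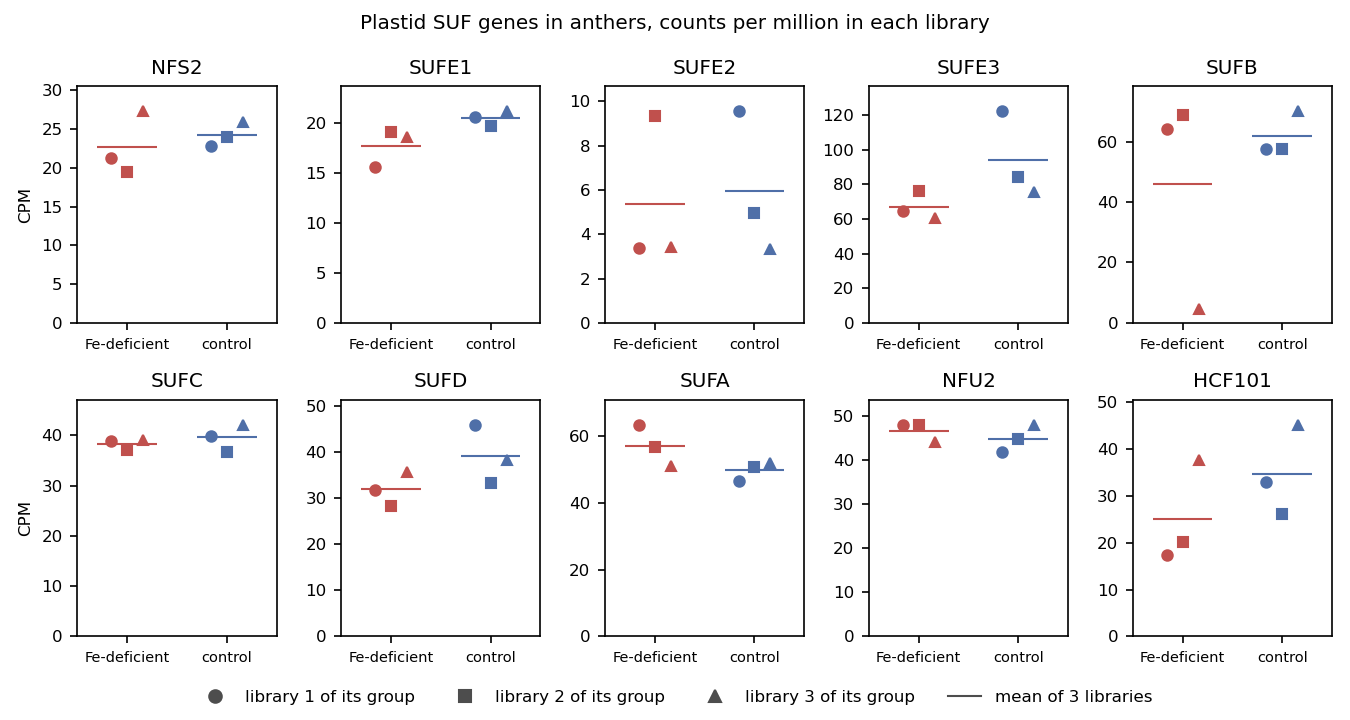
CPM of the 10 SUF genes in each library, with Fe-deficient libraries in red, controls in blue, a symbol per library number and a line at the mean of each group. SUFB is at 4.59 CPM in Fe-deficient 3 and between 57.6 and 70.0 CPM in the other 5 libraries.

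The balance of the 3 scaffold transcripts differed in Fe-deficient 3. Of the summed TPM of SUFB, SUFC and SUFD, SUFB made up 40.9%, 44.3% and 4.52% in Fe-deficient 1, 2 and 3, against 34.4%, 38.7% and 40.1% in controls 1, 2 and 3. In TPM there were 0.0786 SUFB transcripts for each SUFC transcript in Fe-deficient 3, against 0.962 to 1.11 in the controls, while SUFC over SUFD was 1.51 there and 1.20 to 1.53 in the controls. In Fe-deficient 1 and 2 the SUFB over SUFD ratio was 1.86 and 2.24, above the controls (1.16 to 1.68). SUFC over SUFD was above the controls in these libraries too, at 1.68 and 1.82.

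**Figure D2:**
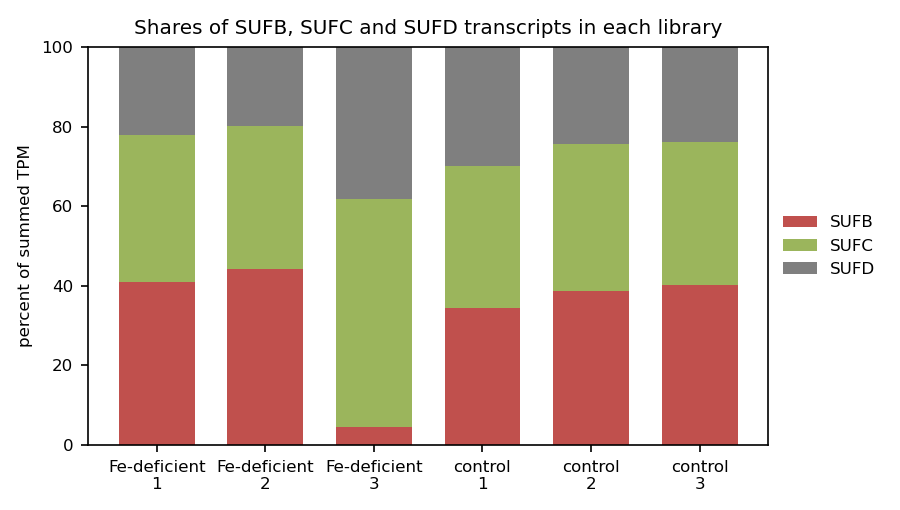
Stacked bars of the percent of summed TPM that SUFB, SUFC and SUFD take in each library, Fe-deficient libraries left of controls. SUFB is at 4.52% in Fe-deficient 3 and is between 34.4% and 44.3% in the other libraries.

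Genes of the sulfur supply showed no departure of that size. NFS2 (AT1G08490, chromosome 1, 2685659 to 2688658, 9 exons), the desulfurase, had 21.3, 19.5 and 27.3 CPM in the Fe-deficient libraries, and 22.8, 24.0 and 25.9 CPM in the control libraries. Fe-deficient 1 and 2 were below all controls and Fe-deficient 3 above all of them, so the groups overlapped (edgeR log2 fold change -0.09, SE 0.17, adjusted p = 0.801). That value was -0.25 without Fe-deficient 3 and 0.00 without Fe-deficient 2. SUFE1 (AT4G26500, chromosome 4, 13381714 to 13383641, 1 exon), an activator of NFS2 that also carries a BolA domain, had 15.6, 19.1 and 18.6 CPM in the Fe-deficient libraries, and 20.6, 19.7 and 21.2 CPM in the control libraries. The groups did not overlap, but Fe-deficient 2 was close to control 2, and the edgeR log2 fold change was -0.21 (SE 0.14, adjusted p = 0.511), or -0.12 without Fe-deficient 1. The gene lies wholly within UKL4 on the opposite strand, but the deposited estimated counts of both loci were whole to within 0.01 in 6 of 6 libraries, so no reads were divided between them. UKL4 had 58.8, 62.0 and 45.9 CPM in the Fe-deficient libraries, and 35.0, 47.7 and 48.2 CPM in the control libraries. Fe-deficient 1 and 2 were above all controls for UKL4 and Fe-deficient 3 was within their range.

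SUFE3 (AT5G50210, chromosome 5, 20442613 to 20446050, 7 exons) joins a SUFE domain to quinolinate synthase, an iron-sulfur enzyme of NAD synthesis. It had 64.6, 76.1 and 60.6 CPM in the Fe-deficient libraries, and 122, 84.2 and 75.6 CPM in the control libraries. Control 1 was the highest library and Fe-deficient 2 lay just above the lowest control, so the groups overlapped by this margin alone. In TPM they did not overlap, at 21.2, 26.1 and 24.9 in the Fe-deficient libraries and 50.0, 34.2 and 32.9 in the control libraries (limma on log2(TPM + 1), difference -0.66, adjusted p = 0.241). On that scale the median difference of all tested loci was -0.20. SUFE3 had the lowest adjusted p of the 10 genes (edgeR log2 fold change -0.49, SE 0.21, adjusted p = 0.375), and its value was -0.26 without control 1. SUFE2 (AT1G67810, chromosome 1, 25426234 to 25427461, 1 exon), the family member known for expression in flowers and pollen, had the lowest mean TPM of the 10 in both groups. It had 3.37, 9.36 and 3.41 CPM in the Fe-deficient libraries, and 9.55, 4.95 and 3.34 CPM in the control libraries. High and low values occurred in both groups. The highest value, in control 1, stood in the library with the lowest late pollen sum. The next, 9.36 CPM in Fe-deficient 2, stood in the library with the highest late pollen sum. Its edgeR log2 fold change of -0.14 (SE 0.57, adjusted p = 0.918) became 0.37 without control 1, 0.10 without Fe-deficient 1, 0.10 without Fe-deficient 3 and -0.81 without Fe-deficient 2. Of the summed TPM of the SUFE genes, SUFE3 held 50.9% to 59.7% in the Fe-deficient libraries and 58.1% to 61.3% in the controls.

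Among the carriers, SUFA (AT1G10500, called CPISCA in the reference, chromosome 1, 3460000 to 3461485, 3 exons) had the highest TPM of the pathway. It had 63.3, 56.8 and 51.0 CPM in the Fe-deficient libraries, and 46.4, 50.8 and 52.0 CPM in the control libraries. Fe-deficient 1 and 2 were above all controls and Fe-deficient 3 within their range. The edgeR log2 fold change was 0.20 (SE 0.13, adjusted p = 0.485), 0.12 without Fe-deficient 1, and -0.02 by limma on log2(TPM + 1). SUFA overlaps a gene on the opposite strand, AT1G10490, by 621 bases, and the counts of both were likewise whole in 6 of 6 libraries. NFU2 (AT5G49940, chromosome 5, 20315390 to 20317401, 4 exons), which passes clusters to photosystem I and other plastid proteins, had 47.9, 47.8 and 44.1 CPM in the Fe-deficient libraries, and 41.7, 44.7 and 47.9 CPM in the control libraries. The groups overlapped, and the edgeR log2 fold change of 0.06 (SE 0.11, adjusted p = 0.817) was -0.10 with library totals as the scale and 0.01 without control 1. NFU2 is the only one of the 10 with a second transcript in the files, and that transcript took between 0 and 13.3 estimated counts in a library.

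HCF101 (AT3G24430, chromosome 3, 8868583 to 8872346, 14 exons), a carrier that photosystem I needs, had 17.4, 20.2 and 37.7 CPM in the Fe-deficient libraries, and 32.9, 26.0 and 45.1 CPM in the control libraries. Fe-deficient 1 and 2 were the lowest of the 6 libraries. They were also those with the lowest green tissue and tapetum sums and the highest late pollen sums. NFS2 and SUFD were lowest in the same libraries. The edgeR log2 fold change of HCF101 was -0.46 (SE 0.35, adjusted p = 0.537). Without Fe-deficient 3 it was -0.88, the lowest adjusted p among the SUF genes in that comparison (edgeR adjusted p = 0.101), and it was -0.23 without control 3 and -0.26 without Fe-deficient 1.

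**Figure D3:**
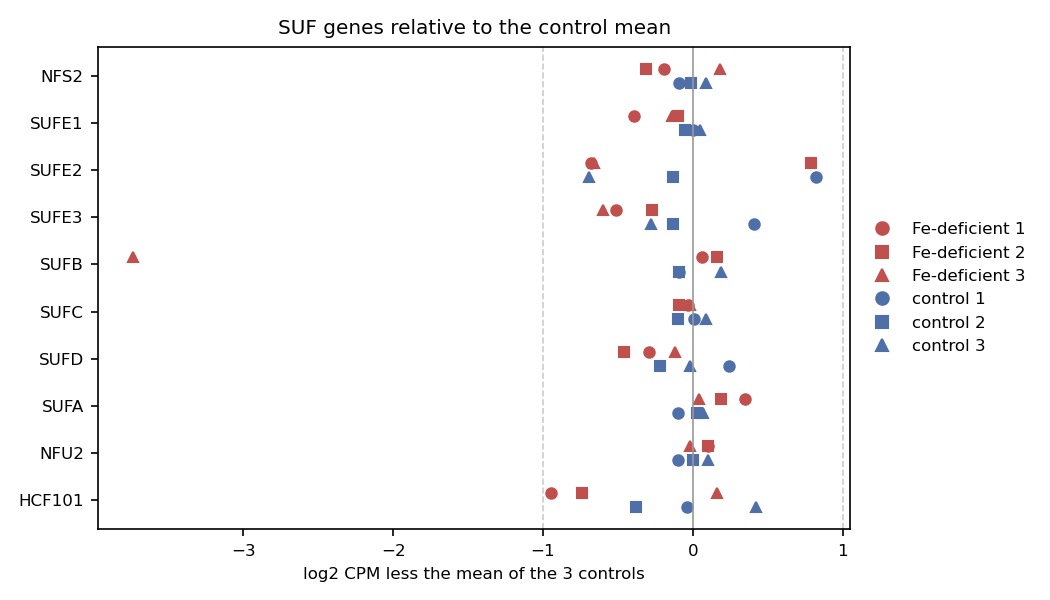
log2 CPM of each SUF gene less the mean of the 3 controls, Fe-deficient libraries in red above controls in blue, with dashed lines at 1 log2 unit. SUFB in Fe-deficient 3 (-3.74) is the only value past a dashed line, and HCF101 in Fe-deficient 1 (-0.95) is the next lowest.

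As a group, the SUF genes gave no call. Of the 10, 0 were called higher and 0 lower by edgeR at a Benjamini-Hochberg adjusted p under 0.05, where 0.00% of 21267 tested loci were called higher and 0.00% lower. At an unadjusted p under 0.05 the edgeR count was 0 as well, while 7.34% of all tested loci were higher and 6.09% lower at that level. DESeq2, limma-voom and limma on TPM also called 0 of them, and DESeq2 called 2.01% of the loci it gave an adjusted p higher and 1.28% lower. The edgeR log2 fold change was negative for 8 and positive for 2, with a median of -0.17, against 10578 negative, 10689 positive and a median of 0.00 over all tested loci. All 3 Fe-deficient libraries lay below all controls for 1 of the 10 (SUFE1), where 10.3% of all tested loci did, and above for 0 of the 10, where 10.0% did.

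Library by library, 1 SUF gene was at least 1 log2 unit below the control mean and below all controls in Fe-deficient 3, where 4.63% of all tested loci were. In Fe-deficient 1 the number was 0 (7.43% of all) and in Fe-deficient 2 it was 0 (6.87% of all). As far above the controls were 0 SUF genes in each of Fe-deficient 1, 2 and 3, where 11.2%, 9.09% and 7.06% of all tested loci were. Counted without regard to size, 5, 4 and 3 of the 10 were below all controls in Fe-deficient 1, 2 and 3, where 37.7%, 36.3% and 31.9% of all tested loci were. Those in Fe-deficient 1 were NFS2, SUFE1, SUFE3, SUFD and HCF101. The same genes without SUFE3 were below all controls in Fe-deficient 2, and SUFE1, SUFE3 and SUFB were in Fe-deficient 3. Above all controls were 2 in Fe-deficient 1 (SUFA and NFU2), 1 in Fe-deficient 2 (SUFA) and 1 in Fe-deficient 3 (NFS2), where 36.6%, 36.1% and 30.5% of all tested loci were. The median difference of the 9 genes other than SUFB was -0.29, -0.10 and -0.02 in Fe-deficient 1, 2 and 3.

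Between genes, transcript levels in TPM were highest for SUFA, at 76.3 to 82.2 in the Fe-deficient libraries and 74.6 to 88.8 in the controls. NFU2 followed, at 52.9 to 61.2 TPM in the Fe-deficient libraries and 57.7 to 70.2 TPM in the controls. Next were SUFE3, SUFB and SUFC, at 39.0, 35.9 and 34.5 TPM on average in the controls, whose ranges overlapped between neighbours. SUFD had a mean of 17.5 ± 4.08 TPM in the Fe-deficient libraries and of 24.6 ± 4.05 TPM in the controls (SD, n = 3 each). From SUFD down through HCF101, SUFE1 and NFS2 to SUFE2, at 9.43 TPM in controls, neighbours in the order of the controls overlapped in both groups. The ranges of SUFA and NFU2, of NFU2 and SUFE3, and of SUFC and SUFD did not overlap within either group. The summed TPM of the 9 genes without SUFB was 231, 245 and 285 in Fe-deficient 1, 2 and 3, against 311, 282 and 326 in the controls. Differences between the groups in TPM include a shift of all tested loci, whose median difference was -0.20 on log2(TPM + 1).

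The pattern of SUFB across the 6 libraries was closest to those of the ferritin FER1 and the peroxidase SAPX. Likeness was measured as the root mean square difference of log2 CPM after each gene's own mean was taken off, over 14279 other loci of at least 10 CPM on average. FER1, which stores iron in plastids, was the nearest, at a difference of 0.19. FER1 had 409, 577 and 31.8 CPM in the Fe-deficient libraries, and 430, 414 and 382 CPM in the control libraries. Next, at 0.20, was SAPX, a stromal ascorbate peroxidase, which is a heme enzyme, with 115, 120 and 10.8 CPM in the Fe-deficient libraries, and 118, 113 and 107 CPM in the control libraries. The vacuolar iron transporter homologue VTL1 (AT1G21140) was the third nearest at 0.37, followed by the purple acid phosphatase PAP11 at 0.46 and the auxin response factor ARF11 at 0.48. All 5 were far lower in Fe-deficient 3 than in any other library, which follows from how they were chosen. SUFB differed little among the other libraries, so this likeness rests mostly on Fe-deficient 3. The nearest SUF gene, SUFE3, differed from SUFB by 1.29. For SUFE2 the nearest locus was TIN1 at 0.27, and the next (AT5G57123, AT5G63350, AT1G52855 and AT5G60330) were at 0.37 to 0.39.

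**Figure D4:**
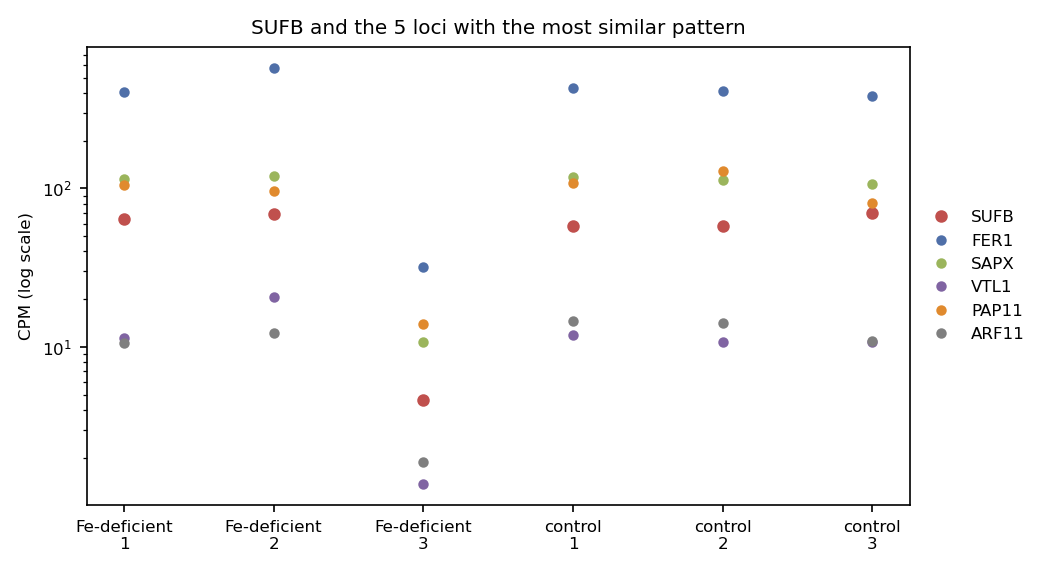
CPM on a log scale of SUFB and the 5 loci with the smallest difference in pattern, in each library, Fe-deficient libraries left of controls. All 6 have their lowest value in Fe-deficient 3, where SUFB is at 4.59 CPM and FER1 at 31.8 CPM. For the 5 this follows from how they were chosen.

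Among other factors of plastid cluster assembly and transfer, the one far below the controls in Fe-deficient 3 was NEET, an iron-sulfur protein of the organelles. Of 10 such genes, 0 passed by edgeR in either direction over all tested loci, 3 had a positive and 7 a negative log2 fold change, and the median was -0.10. NEET (AT5G51720) had 4.17, 3.69 and 0.0875 CPM in the Fe-deficient libraries, and 4.12, 6.09 and 10.7 CPM in the control libraries. The last Fe-deficient value is 2 counts, a ratio to the control mean of 0.0126 with an exact Poisson 95% interval of 0.00152 to 0.0453, counting error only. NFU1, a relative of NFU2, had 47.2, 46.1 and 36.9 CPM in the Fe-deficient libraries, and 39.4, 41.8 and 39.4 CPM in the control libraries. DJA5, a DnaJ protein linked to the iron supply of SUF, had an edgeR log2 fold change of -0.15 (SE 0.16, adjusted p = 0.653), and IBA57.2 one of -0.22 (SE 0.17, adjusted p = 0.541).

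Proteins that receive plastid clusters included 4 that were also low in Fe-deficient 3. Of 29 genes of this list 27 were tested and 0 passed by edgeR, with 5 lower (6.09% of all tested loci) and 0 higher (7.34% of all) at an unadjusted p under 0.05. The log2 fold change was negative for 21 and positive for 6, with a median of -0.25, where all tested loci were near evenly divided. In Fe-deficient 3, 4 of the 27 were at least 1 log2 unit below the control mean and below all controls, where 4.63% of all tested loci were: FD2, NIR1, SIR and ASE2, of which SIR and ASE2 are named after their values were seen. In Fe-deficient 1 the number was 3 (7.43% of all tested loci) and in Fe-deficient 2 it was 1 (6.87%). FD2, the main leaf ferredoxin, had 143, 133 and 83.4 CPM in the Fe-deficient libraries, and 205, 185 and 243 CPM in the control libraries (edgeR log2 fold change -0.82, SE 0.24, adjusted p = 0.331). All 3 Fe-deficient libraries were below the controls. SIR, sulfite reductase, had 116, 124 and 40.9 CPM in the Fe-deficient libraries, and 140, 125 and 143 CPM in the control libraries. Nitrite reductase, NIR1, had 12.7, 18.2 and 9.19 CPM in the Fe-deficient libraries, and 14.9, 27.0 and 39.3 CPM in the control libraries (edgeR log2 fold change -1.02, SE 0.41, adjusted p = 0.370). The Rieske protein PETC of the cytochrome complex had 99.0, 101 and 133 CPM in the Fe-deficient libraries, and 165, 146 and 215 CPM in the control libraries, without overlap (edgeR log2 fold change -0.66, SE 0.20, adjusted p = 0.331). DHAD, an enzyme of branched-chain amino acid synthesis, had a mean of 57.6 ± 8.65 CPM in the Fe-deficient libraries and of 90.3 ± 14.2 CPM in the controls (SD, n = 3 each). PETC and FD2 are also photosynthesis genes, and the green tissue sum was below all controls in Fe-deficient 1 and 2, whose part in these values was not tested.

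In the assembly pathways outside the plastid, 0 of 15 tested genes of the mitochondrial ISC pathway and 0 of 7 of the cytosolic CIA pathway were at least 1 log2 unit below the control mean and below all controls in Fe-deficient 3. With 4.63% of all tested loci so low, 0 in lists of this size is near the background. By edgeR 0 passed in either list. At an unadjusted p under 0.05, 1 ISC gene was higher (ISU1) and 1 CIA gene was higher (ATR3), and 0 of either list were lower, counts near the background of 7.34% higher and 6.09% lower. ISU1, the mitochondrial scaffold and so the counterpart of SUFB, had 171, 161 and 132 CPM in the Fe-deficient libraries, and 87.4, 119 and 110 CPM in the control libraries. All 3 Fe-deficient libraries were above the controls (edgeR log2 fold change 0.55, SE 0.17, adjusted p = 0.334). ISCA and NFU5, mitochondrial carriers, had edgeR log2 fold changes of 0.33 (SE 0.15, adjusted p = 0.382) and 0.23 (SE 0.13, adjusted p = 0.433), and the ferredoxin MFDX1 one of -0.35 (SE 0.20, adjusted p = 0.447). In the CIA list ATR3, an electron donor, had 32.1, 30.1 and 29.0 CPM in the Fe-deficient libraries, and 24.9, 25.7 and 24.6 CPM in the control libraries. The others named there were NAR1 (edgeR log2 fold change 0.15, SE 0.14, adjusted p = 0.603), CIA1 (-0.18, SE 0.13, adjusted p = 0.526) and MET18 (-0.17, SE 0.12, adjusted p = 0.526).

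**Figure D5:**
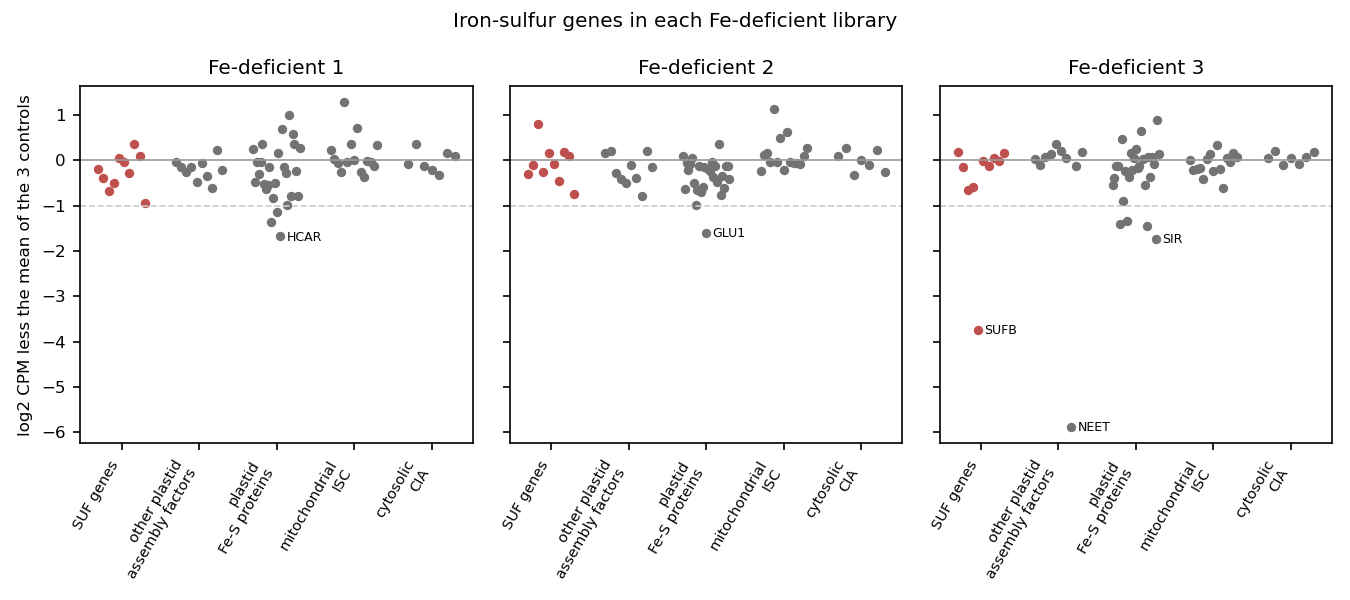
log2 CPM less the control mean for the tested genes of 5 lists, a panel for each Fe-deficient library, SUF genes in red, and names given below -1.6. In Fe-deficient 3 SUFB (-3.74) and NEET (-5.89) lie far below every other point, and the mitochondrial and cytosolic genes stay above the dashed line at -1.

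FSD1, an iron superoxide dismutase, had its lowest value in Fe-deficient 3 too. It had 19.5, 10.8 and 0 CPM in the Fe-deficient libraries, and 47.0, 148 and 412 CPM in the control libraries. The 0 allows up to 0.131 CPM, which is 3 counts in that library. Unlike SUFB and FER1, FSD1 was below all controls in Fe-deficient 1 and 2 as well.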

How the data were processed

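Each library has 1 deposited table, with estimated counts and TPM for every transcript per the file headers. The submitters' processing notes name Trimmomatic 0.35, Salmon 0.12.0 and the TAIR10 build. The authors' TPM values are scaled by transcript length and library size, and the deposited lengths served for an offset. The sources used here do not give the strand setting. Reads shared by similar transcripts are divided between them by Salmon, and the counts of NFS2, SUFE1, SUFB and SUFA and of the genes overlapping them on the opposite strand were whole to within 0.01 in 6 of 6 libraries.

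For each of 33027 loci the estimated counts of its transcripts (41086 in all) were added and then rounded. For 9 of the 10 SUF genes the deposited estimated counts were whole in every library. Groups and replicate numbers came from the titles. Totals were 16818176 to 22710901 counts per library, no pair of libraries was identical, and none agreed within counting noise (chi-square per degree of freedom 27.7 to 133 within a group). edgeR 4.0.16's quasi-likelihood test (R 4.3.3) was run over 21267 loci kept by filterByExpr, with TMM factors and a design of group alone, and p-values were adjusted by Benjamini-Hochberg. The SE is the log2 fold change divided by the root of its F. CPM use TMM-scaled library sizes, and differences between single libraries and the control mean are of log2 CPM with 0.5 counts added. limma 3.58.1 and DESeq2 1.42.0 served in alternatives. The procedure was tested on simulated data, where it recovered 4% of 50 genes changed 2-fold and 70% of 50 changed 4-fold. A gene that did not pass is therefore not shown to be unchanged. Python 3.11.15 with matplotlib 3.10.9 drew the figures.

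Gene models, names and promoter sequences are RefSeq's on TAIR10.1, and all 10 SUF loci matched. For 5 of them the reference does not list the short name used here. The plastid-encoded PSAA, PSAB and PSAC were not in that reference table. The SUF genes and lists were chosen with earlier results of these data known. Named besides the SUF genes were, per list, those past the threshold or else the 4 with the lowest p, the genes BTS, FER1, FSD1 and OPT3, and the 5 loci nearest in pattern to SUFB and to SUFE2. Neighbouring genes, genes of the closing observations and those said to be so were chosen after their values were seen. Alternatives were other scalings, filters, tools, a length offset, a replicate block and each library left out. A fit on replicates 1 and 2 alone was added after the data were seen.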

Additional observations from a re-analysis of the deposited data

How the results depend on the processing

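None of the 10 SUF genes and none of the tested genes of the other iron-sulfur lists passed the threshold in the edgeR fit or in any of 18 alternatives, where the lowest adjusted p of a SUF gene was 0.101 (HCF101, edgeR without Fe-deficient 3). Among all loci, calls came from DESeq2 (439 higher, 278 lower) and from replicates 1 and 2 alone (89 and 3), and the other settings gave 0. The SUF median log2 fold change of -0.17 ranged from -0.24 to -0.09 when 1 library was left out. It was -0.34 with library totals alone, -0.37 on log2(TPM + 1) and -0.41 on log2(TPM + 0.1), where the median of all loci moved to -0.15, -0.20 and -0.23. Relative to that median the SUF genes stood at -0.19, -0.18 and -0.18, against -0.18 in the edgeR fit. SUFB in Fe-deficient 3 stood at -3.76 to -3.73 from the controls under other scalings, at -3.78 to -3.64 with 1 control left out, at -3.71 on log2(TPM + 0.1) and at -3.34 on log2(TPM + 1). Signs turned for NFS2 without Fe-deficient 2 (0.00, adjusted p = 0.995 by edgeR), for SUFB without Fe-deficient 3 (0.11) and with replicates 1 and 2 alone (0.21), and for SUFE2 without control 1 (0.37), Fe-deficient 1 (0.10) or Fe-deficient 3 (0.10). They turned for SUFA on both TPM scales (-0.02 and -0.02) and for NFU2 with upper-quartile factors (-0.02), library totals (-0.10) and both TPM scales (-0.16 and -0.16). With 1 library left out, NFS2 ranged from -0.25 to 0.00, SUFE2 from -0.81 to 0.37 and SUFB from -0.85 to 0.11. The causes were not tested. With the replicate number as block, 0 SUF genes passed, the median was -0.19 and SUFB stood at -0.95. The labels do not say whether the numbers pair libraries. Deviations of same-numbered libraries correlated at -0.18, 0.41 and -0.13 across genes, and those of differently numbered libraries at -0.32 to 0.34. With 3 libraries a group these values cannot settle whether the numbers are a pairing. With 3 libraries a group, 1 of them far from the others, differences of the size seen in most SUF genes are within the spread.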

Other observations

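Some genes of the iron-sulfur lists had patterns other than that of SUFB, and all of the following were chosen after their values were seen. IBA57.1, a mitochondrial assembly factor, had 155, 141 and 47.6 CPM in the Fe-deficient libraries, and 41.8, 77.5 and 79.5 CPM in the control libraries, so that Fe-deficient 3 was within the control range. THIC, an iron-sulfur enzyme of thiamine synthesis, had 81.9, 131 and 263 CPM in the Fe-deficient libraries, and 117, 130 and 187 CPM in the control libraries, with its highest value in the library where SUFB was lowest. PAO, which breaks down chlorophyll, had 94.4, 60.3 and 49.5 CPM in the Fe-deficient libraries, and 50.0, 43.5 and 48.5 CPM in the control libraries.

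A relative of SUFB on chromosome 5, ABCI9 (AT5G44316), is 80.5% identical to it over 1050 aligned transcript bases. ABCI9 had at most 0.113 CPM in any library. SUFB also overlaps AT4G04760 on the opposite strand by 84 bases. That neighbour had 28.7, 33.5 and 25.1 CPM in the Fe-deficient libraries, and 75.4, 51.7 and 38.3 CPM in the control libraries.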
